A study of Saccharomyces cerevisiae with 24 samples.

Results

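The general stress genes of budding yeast described here are 10 genes that the transcription factors Msn2 and Msn4 are known to activate, *HSP12*, *CTT1*, *DDR2*, *GRE1*, *GRE3*, *SIP18*, *HOR7*, *TFS1*, *SPI1* and *GAD1*. They were chosen by name, with earlier results of these data known. The array annotation pairs each gene with 1 probe set, so that 10 of the 5498 probe sets assigned to a single *Saccharomyces cerevisiae* gene were followed. RNA was measured in 8 strains with 3 independent cultures each, on 1 Affymetrix Yeast Genome 2.0 array per culture. All cultures were harvested in mid-log growth at 30°C in a supplemented minimal medium (SMM). The study asked how the loss of the histone variant H2A.Z (encoded by *HTZ1*) and of the *SWR1* complex, which places H2A.Z in chromatin, changes transcription, alone and together. The strains were wild type (BY4741), *htz1Δ*, *swr1Δ*, *swc2Δ*, *swc5Δ* and the double mutants *htz1Δ swr1Δ*, *htz1Δ swc2Δ* and *htz1Δ swc5Δ*. Swr1 is the ATPase of the complex, and Swc2 and Swc5 are subunits of it. All strains are haploid MATa cells lacking *his3*, *leu2*, *ura3* and *met15*. In addition, *BAR1*, which encodes a secreted protease acting on the mating pheromone α-factor, is deleted in the *htz1Δ* strain, and *LYS2*, a gene of lysine synthesis, in *htz1Δ swc5Δ*. The *htz1* and *bar1* deletions cannot be told apart in the comparison of *htz1Δ* with wild type. In those of *htz1Δ* with the double mutants, which carry *BAR1*, the loss of the subunit cannot be told apart from the presence of *BAR1*. The single mutants of the complex carry *BAR1* too, so that *bar1* is a further difference in their comparisons with *htz1Δ*. Likewise the *lys2* deletion cannot be told apart from the others in any comparison with *htz1Δ swc5Δ*.

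Msn2 and Msn4 are related zinc-finger proteins that bind the stress response element in promoters. Protein kinase A, which is active in cells growing on glucose, keeps them in the cytoplasm, and heat, osmotic shock, oxidants or starvation let them enter the nucleus. Their targets are therefore less expressed in rapidly growing cells than under many kinds of stress, where they rise together. Of the 10 genes, *HSP12* encodes a small membrane-associated heat shock protein, *CTT1* the cytosolic catalase, *GRE3* an aldose reductase and *GAD1* glutamate decarboxylase. *GRE1* and *SIP18* are paralogs that encode hydrophilins, hydrophilic proteins linked to desiccation. *DDR2* and *HOR7* are paralogs that encode small stress-induced proteins. *TFS1* encodes an inhibitor of the vacuolar carboxypeptidase Y, and *SPI1* a cell wall protein that is anchored by a lipid.

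Values are log2 expression as given by RMA, so that a difference of 1 is a 2-fold change of signal. The deposited arrays of *swr1Δ*, *swc2Δ* and *swc5Δ* had medians of 9.29 to 9.30, 10.06 to 10.10 and 9.97 to 9.99, whereas the other 15 arrays had medians of 9.71 to 9.77. The 9 arrays were therefore brought to the common level by rank. Array processing and mutation cannot be told apart in these 3 strains, and their values rest on this step. The deleted genes were low in the strains labelled as lacking them. *HTZ1* averaged 10.19 in wild type and 2.74 to 3.09 in the 4 strains labelled *htz1Δ*. The haploid a-cell markers were high, at strain means of 11.16 to 12.43, with the lowest in *htz1Δ*, where *BAR1* averaged 2.94. The α-cell markers averaged 5.78 to 6.31. Probe sets for another yeast species on the same array had a median of 2.82 and a 95th percentile of 3.85, and no stress gene fell below the latter on any array.

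The 10 genes differed in how far they moved. *HOR7* stayed between 13.57 and 13.92 over all 24 arrays, and *HSP12* between 13.08 and 14.07. Both probe sets lie near the top of the array's value range, at the 99.1 and 98.8 percentile of the tested probe sets, and the part of this position in their narrow range was not tested. *GRE1*, at percentile 15.8, ranged from 6.38 to 9.39, and *SIP18*, at percentile 12.7, from 5.76 to 8.55. *DDR2* spanned 2.91 log2 units and *CTT1* 2.66, and the other 4 genes spanned 1.39 to 1.98. *GRE3*, *DDR2*, *TFS1*, *SPI1* and *GAD1* lay at percentiles 82.6, 76.2, 75.5, 74.8 and 73.9, and *CTT1* at 42.4. Most of the 10 genes were thus not low among the tested probe sets in these cultures. The lowest array for 8 of the 10 genes was a *swc5Δ* culture, and for *HOR7* and *TFS1* it was replicate 3 of *swc2Δ*.

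**Figure D1:**
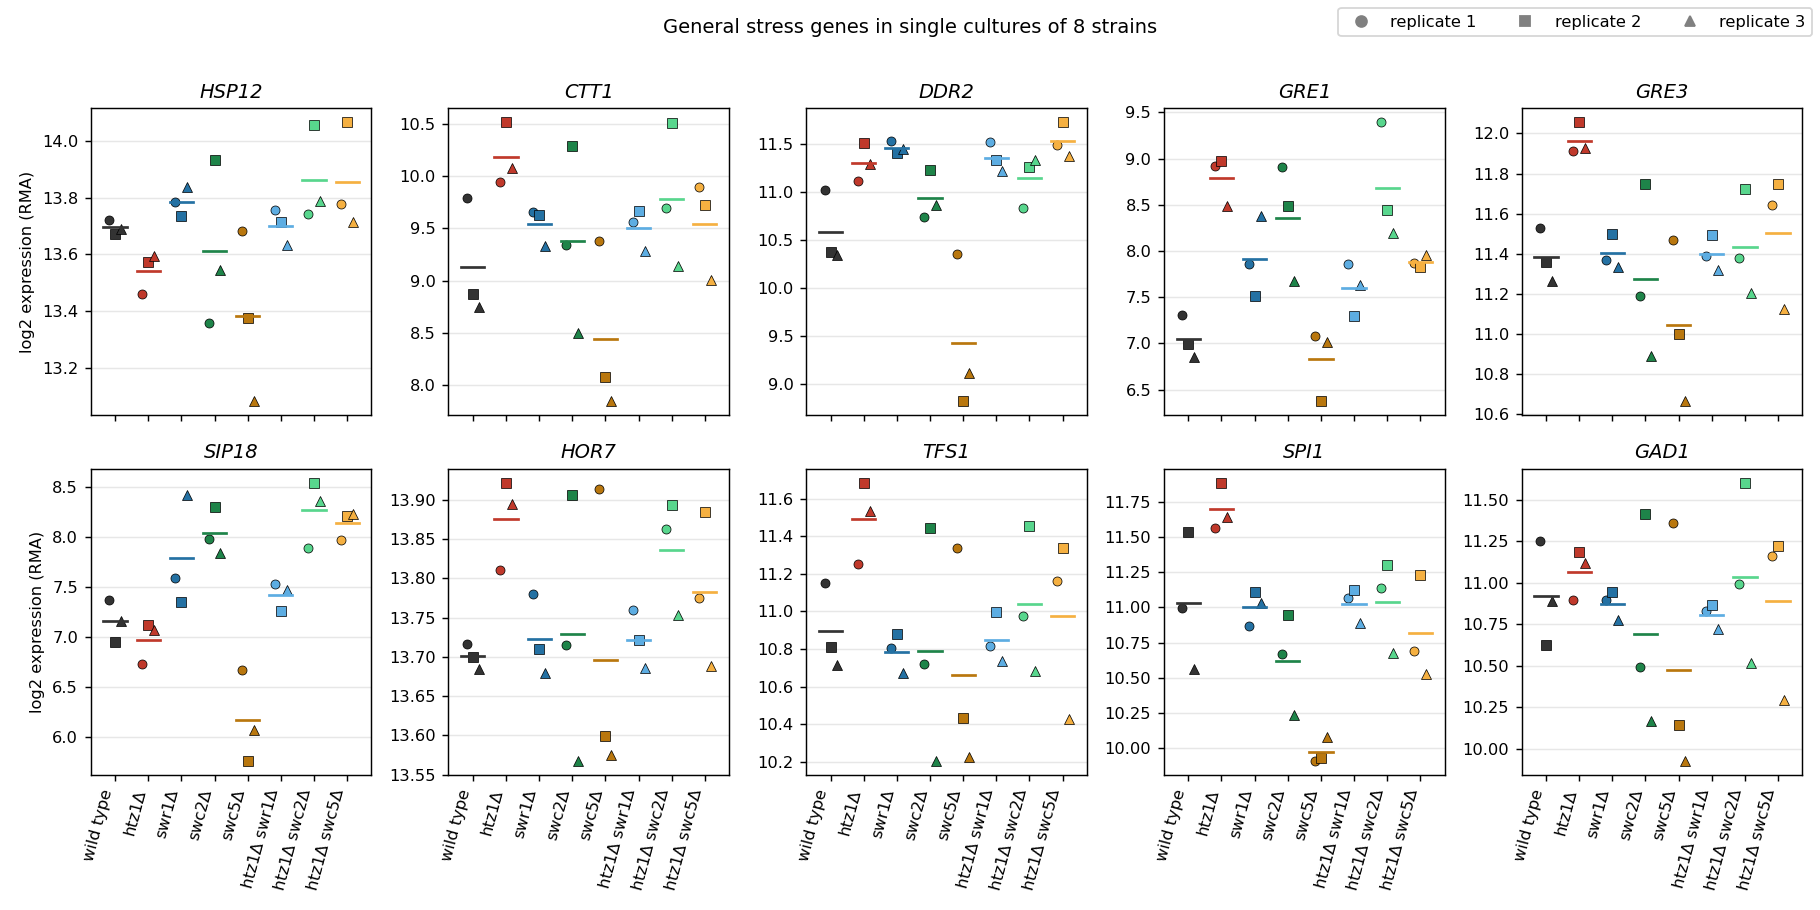
Log2 expression of the 10 stress genes (each panel with its own y axis) on each of 24 arrays, by strain, with 1 symbol per replicate number and a line at the strain mean. *GRE1* ranges from 6.38 to 9.39 and *SIP18* from 5.76 to 8.55, and *HOR7* from 13.57 to 13.92.

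The *htz1Δ* strain had the highest mean of the 8 strains for 7 of the genes (*CTT1*, *GRE1*, *GRE3*, *HOR7*, *TFS1*, *SPI1* and *GAD1*). *DDR2*, *SIP18* and *HSP12* were highest in a double mutant. In *SIP18* and *HSP12*, *htz1Δ* was the second lowest strain, above *swc5Δ*. The largest gap between neighbours in the order was that between wild type and *swc5Δ* in *DDR2*, 10.58 ± 0.38 and 9.43 ± 0.82 (SD, n = 3). Of the 70 pairs of neighbouring strains in the orders of the 10 genes, 60 differed by less than the larger SD of the pair. In *CTT1* for instance *htz1Δ swc5Δ* (9.54 ± 0.47), *swr1Δ* (9.54 ± 0.18) and *htz1Δ swr1Δ* (9.50 ± 0.20) had nearly the same mean (SD, n = 3).

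In *htz1Δ*, 4 of the 10 genes rose and none fell. *GRE1* rose most, *SPI1*, *DDR2* and *GRE3* rose by about the same amount, and *SIP18*, the paralog of *GRE1*, did not pass the test. *GRE1* read 7.30, 6.99 and 6.85 in the wild-type cultures and 8.92, 8.98 and 8.48 in those of *htz1Δ*. The *htz1Δ* cultures all lay above the wild-type cultures, a 3.35-fold difference (log2 change 1.74, SE 0.31, adjusted p = 0.00015, limma). *SIP18* read 7.37, 6.95 and 7.16 in wild type and 6.73, 7.12 and 7.07 in *htz1Δ*. These ranges overlapped (log2 change -0.19, SE 0.24, adjusted p = 0.54).

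*SPI1* read 10.99, 11.53 and 10.57 in wild type and 11.56, 11.89 and 11.64 in *htz1Δ*. Wild-type replicate 2 nearly reached the lowest *htz1Δ* culture (log2 change 0.66, SE 0.22, adjusted p = 0.017). *DDR2* read 11.03, 10.37 and 10.35 in wild type and 11.12, 11.51 and 11.30 in *htz1Δ*, with wild-type replicate 1 just under the *htz1Δ* range (0.73, SE 0.27, adjusted p = 0.034). *GRE3* read 11.53, 11.36 and 11.26 in wild type and 11.91, 12.06 and 11.93 in *htz1Δ*, well apart (0.58, SE 0.20, adjusted p = 0.024). *GRE1* alone was called and changed by more than 2-fold. *CTT1* missed the threshold with a larger difference. It read 9.79, 8.87 and 8.74 in wild type and 9.95, 10.51 and 10.07 in *htz1Δ* (1.04, SE 0.44, adjusted p = 0.053).

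Calls are at an adjusted p under 0.05 (limma over all 24 arrays, Benjamini-Hochberg over 5498 probe sets). Over all tested probe sets 24.2% rose and 26.9% fell by this rule, and 2.11% rose by more than 2-fold. The median log2 change was 0.59 over the 10 genes and -0.02 over all probe sets. In 7 of the 10 genes every *htz1Δ* culture lay above every wild-type culture, as in 32.1% of all probe sets. In *HSP12* every one lay below (adjusted p = 0.37 in the fit of all 24 arrays). The share of all probe sets in that direction is not given here. In a fit of these 2 strains alone, 7 genes rose, with *CTT1* (adjusted p = 0.019), *TFS1* (0.60, adjusted p = 0.012) and *HOR7* (0.18, adjusted p = 0.023) among them, and *HSP12* fell (-0.15, adjusted p = 0.049). The share of all probe sets called was counted only in the fit of all 24 arrays on the common level. Counts from other fits, here and below, have no such share to be set against.

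The smaller changes rested on few cultures. The call of *DDR2* was lost without wild-type replicate 2 or 3 or *htz1Δ* replicate 2 or 3 (log2 change down to 0.61, adjusted p up to 0.12). That of *GRE3* was lost without wild-type replicate 2 or 3 or *htz1Δ* replicate 2 (down to 0.52, adjusted p up to 0.078), and that of *SPI1* without wild-type replicate 3 or *htz1Δ* replicate 2 (down to 0.43, adjusted p up to 0.12). The number of genes called was 1 without wild-type replicate 3 or *htz1Δ* replicate 2, and 5 without wild-type replicate 1. In the last case *CTT1* was called (1.37, adjusted p = 0.024). Wild-type replicate 1 lay above the mean of its strain in 9 of the 10 genes, by 0.23 on average. The *GRE1* call held without any 1 of the 6 cultures (1.64 to 1.90).

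**Figure D2:**
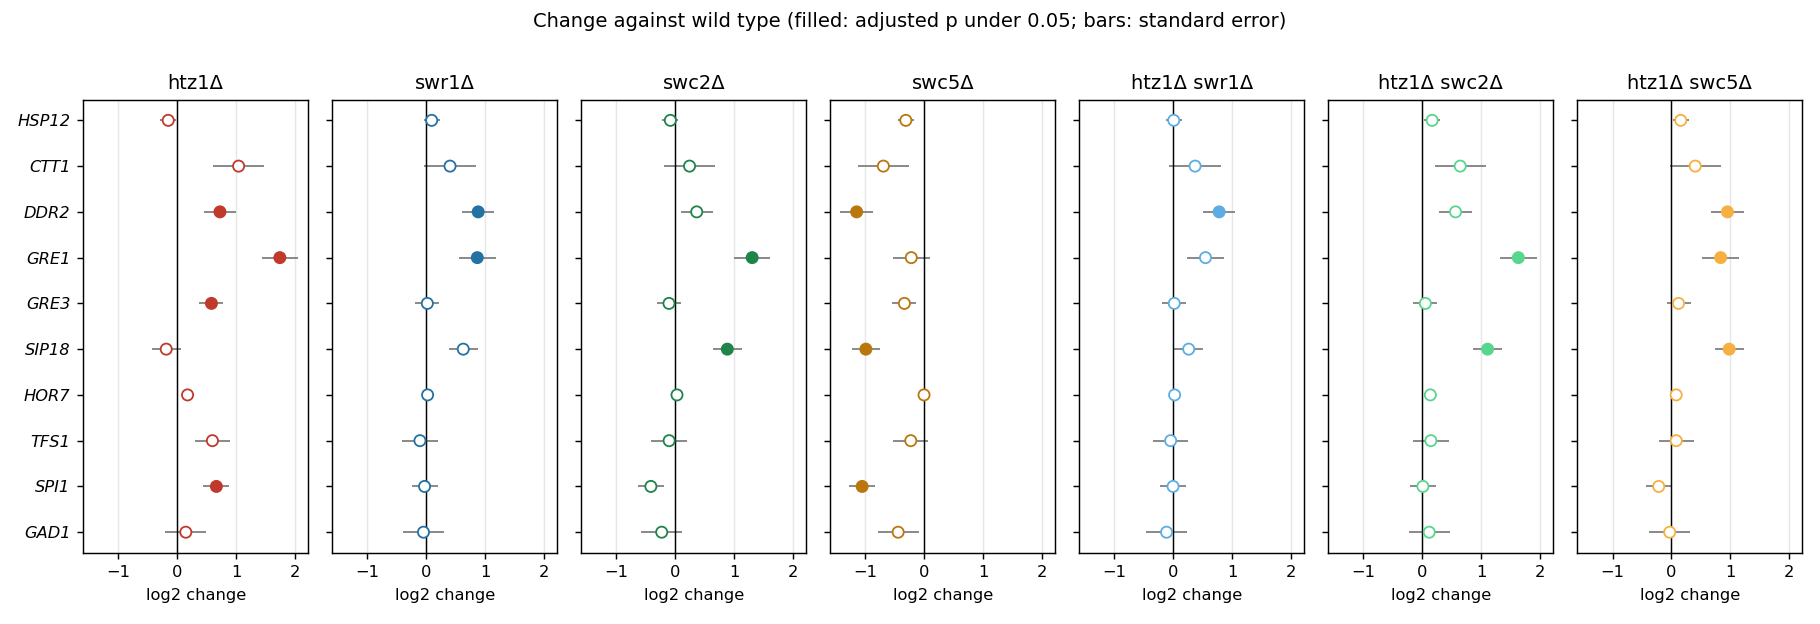
Log2 change of each stress gene against wild type (x axis) in the 7 mutant strains, with the standard error of the fit as bars. Filled points passed an adjusted p under 0.05. They are 4 genes in *htz1Δ*, 2 in *swr1Δ*, 2 in *swc2Δ*, 1 in *htz1Δ swr1Δ*, 2 in *htz1Δ swc2Δ* and 3 in *htz1Δ swc5Δ*, all higher, and 3 genes in *swc5Δ*, all lower. All panels share the 3 wild-type arrays.

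The 3 single mutants of the *SWR1* complex were each set against wild type. In *swr1Δ*, *DDR2* and *GRE1* rose. In *swc2Δ*, *GRE1* and its paralog *SIP18* rose. In *swc5Δ*, no gene rose and 3 fell. The background was 14.7% of probe sets higher in *swr1Δ*, 16% higher in *swc2Δ* and 16.4% higher and 16.6% lower in *swc5Δ*. The comparisons with wild type share its 3 arrays, and differences between these mutants were not tested.

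*DDR2* read 11.54, 11.41 and 11.45 in *swr1Δ*, all above the highest wild-type culture (log2 change 0.88, SE 0.27, adjusted p = 0.019, limma). *GRE1* read 7.86, 7.52 and 8.37 there (0.87, SE 0.31, adjusted p = 0.039). *SIP18* read 7.59, 7.36 and 8.42, with replicate 2 inside the wild-type range (0.63, adjusted p = 0.056). The other 7 genes differed from wild type by -0.11 to 0.40. The *DDR2* call was lost when *swr1Δ* replicate 1 or wild-type replicate 2 or 3 was left out (adjusted p up to 0.079). That of *GRE1* was lost when *swr1Δ* replicate 1 or 3 or wild-type replicate 2 or 3 was left out (down to 0.64, adjusted p up to 0.18). On the deposited level, without the rank step, neither passed (*DDR2* 0.48, adjusted p = 0.12, and *GRE1* 0.37, adjusted p = 0.28), so that 0 genes were called higher. Without *swr1Δ* replicate 2, *SIP18* was called as well (0.85, adjusted p = 0.022).

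In *swc2Δ*, *GRE1* read 8.91, 8.48 and 7.68, all above wild type (log2 change 1.31, SE 0.31, adjusted p = 0.0033, limma). *SIP18* read 7.98, 8.31 and 7.84, again all above wild type (0.88, SE 0.24, adjusted p = 0.0091). Both calls held without any 1 culture and on the deposited level, where the changes were 1.63 and 1.20 and *DDR2* (0.70, adjusted p = 0.033) and *HOR7* (0.31, adjusted p = 0.0021) were also called. The other 8 genes differed from wild type by -0.41 to 0.36, and *SPI1* was called lower without wild-type replicate 3 (-0.65, adjusted p = 0.036). Their cultures were spread widely, with *CTT1* at 9.34, 10.29 and 8.50.

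In *swc5Δ* all 10 estimates lay at or below 0 on the common level, while *TFS1* (0.02) and *HOR7* (0.20, adjusted p = 0.033) lay above it on the deposited level. *DDR2* read 10.36, 8.83 and 9.11, so that replicate 1 reached the wild-type level and the other cultures lay far below it (log2 change -1.15, SE 0.27, adjusted p = 0.0035, limma). *SPI1* read 9.91, 9.94 and 10.08, all below wild type (-1.06, SE 0.22, adjusted p = 0.0013). *SIP18* read 6.67, 5.76 and 6.08, also all below wild type (-0.99, SE 0.24, adjusted p = 0.0043). *DDR2* and *SPI1* fell more than 2-fold, as did 2.27% of all probe sets. The median over the 10 genes was -0.39, and over all probe sets 0.00. The 3 calls held without any 1 culture and on the deposited level (-0.94, -0.82 and -0.90). In a fit of these 2 strains alone that of *DDR2* was lost (adjusted p = 0.12).

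The *swc5Δ* cultures differed among themselves. *CTT1* read 9.38 in replicate 1 and 8.08 and 7.85 in the others, and *TFS1* read 11.34, 10.43 and 10.23. Replicate 1 lay above the strain mean in 9 of the 10 genes, by 0.51 on average, with *SPI1* the exception. Without this culture, 7 genes were lower than wild type, and the share over all probe sets was not counted in that fit. *HSP12* (-0.47, adjusted p = 0.012), *CTT1* (-1.17, adjusted p = 0.044), *GRE3* (-0.55, adjusted p = 0.044) and *GAD1* (-0.89, adjusted p = 0.043) joined the 3 above, and *DDR2* fell by 1.61.

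The *htz1Δ* strain was also set against each single mutant. The single mutants carry *BAR1*, so that the *bar1* deletion cannot be told apart from the other differences here. Against *swr1Δ*, *htz1Δ* was higher in *GRE1* (0.88, adjusted p = 0.029, limma), *SPI1* (0.69, adjusted p = 0.017) and *GRE3* (0.56, adjusted p = 0.032), with 21.1% of all probe sets higher. *SIP18* was lower in *htz1Δ* (-0.82, adjusted p = 0.012, with 21.9% of all probe sets lower). Each call depended on single cultures. That of *GRE1* was lost without replicate 1 or 2 of either strain (to 0.68, adjusted p up to 0.13), and that of *SPI1* without *htz1Δ* replicate 2 or *swr1Δ* replicate 1 (to 0.60, adjusted p up to 0.073). That of *GRE3* was lost without any but *swr1Δ* replicate 2 (to 0.52, adjusted p up to 0.095), and that of *SIP18* without *htz1Δ* replicate 1 or *swr1Δ* replicate 3 (to -0.50, adjusted p up to 0.096). Without *htz1Δ* replicate 2 or *swr1Δ* replicate 1, 0 genes were called higher. On the deposited level *SIP18* was not called (-0.32, adjusted p = 0.26), and 6 genes were higher in *htz1Δ*, with *GRE1* at 1.37, *SPI1* at 1.11 and *GRE3* at 0.97. A fit of these 2 strains alone also called 6 higher, with no share over all probe sets counted.

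Against *swc2Δ*, *htz1Δ* was higher in *SPI1* (1.08, adjusted p = 0.00096, limma) and *GRE3* (0.69, adjusted p = 0.012), with 20.2% of probe sets higher, and lower in *SIP18* (-1.07, adjusted p = 0.0021, with 21% lower). The *GRE3* call was lost without *swc2Δ* replicate 3 (0.50, adjusted p = 0.080) and on the deposited level (0.34, adjusted p = 0.14), and 5 genes were called higher without *swc2Δ* replicate 2, with *TFS1* (1.03, adjusted p = 0.011), *CTT1* (1.26, adjusted p = 0.029) and *HOR7* (0.23, adjusted p = 0.038) added. Over all tested probe sets, deviations from the strain mean correlated by 0.14, 0.27 and 0.14 between same-numbered cultures of these 2 strains. Cultures of different numbers and strains had -0.50 to 0.36, so that these values do not establish pairing. With the replicate number as a block, in a fit of these 2 strains alone, *DDR2* was also higher in *htz1Δ* (0.36, adjusted p = 0.013). Against *swc5Δ*, 7 genes were higher in *htz1Δ*, with 17% of probe sets higher. They were *GRE1* (1.96), *DDR2* (1.88), *CTT1* (1.74), *SPI1* (1.72), *GRE3* (0.92), *TFS1* (0.83) and *SIP18* (0.81), at adjusted p of 3.0e-05 to 0.039. Without *swc5Δ* replicate 1 there were 9, all but *HSP12*, with no share over all probe sets counted. The calls of *SIP18* and *TFS1* were lost without *htz1Δ* replicate 2 or 3 or *swc5Δ* replicate 2 or 3 (to 0.60 and 0.61, adjusted p up to 0.094 and 0.19). Both were also lost in a fit of these 2 strains alone (adjusted p = 0.066 and 0.10), and that of *TFS1* on the deposited level (0.58, adjusted p = 0.11).

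In the double mutants the median log2 change of the 10 genes against wild type was 0.02 (*htz1Δ swr1Δ*), 0.16 (*htz1Δ swc2Δ*) and 0.14 (*htz1Δ swc5Δ*), where it was 0.59 in *htz1Δ*. The mean level of the 10 genes differed less between *htz1Δ* and 2 of the double mutants. It was 10.56 in wild type, 11.09 in *htz1Δ*, 10.74 in *htz1Δ swr1Δ*, 11.01 in *htz1Δ swc2Δ* and 10.89 in *htz1Δ swc5Δ*. In *htz1Δ swc2Δ* all 10 estimates lay above wild type. *GRE1*, *SIP18* and *DDR2* were called higher than wild type in some of the double mutants. Values of the double mutants, *htz1Δ* and wild type are on the deposited level. In *htz1Δ swr1Δ*, *GRE1* read 7.86, 7.29 and 7.63, all below *htz1Δ* (log2 change -1.20, SE 0.31, adjusted p = 0.0058, limma). *SPI1* read 11.07, 11.13 and 10.89 (-0.67, SE 0.22, adjusted p = 0.023) and *GRE3* 11.39, 11.49 and 11.32 (-0.57, SE 0.20, adjusted p = 0.036), each all below *htz1Δ*. These 3 genes had risen in *htz1Δ*, and no gene rose from *htz1Δ* to *htz1Δ swr1Δ*. The comparisons of *htz1Δ* with wild type and with the double mutants share the *htz1Δ* arrays. The background was 21.5% lower, and 16.6% higher.

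*DDR2*, the other gene raised in *htz1Δ*, read 11.52, 11.34 and 11.22 in *htz1Δ swr1Δ*, overlapping the range of *htz1Δ* (0.05, 95% interval -0.52 to 0.63) and above wild type (0.78, adjusted p = 0.040, with 10.9% of probe sets higher). This last call held with all cultures and without wild-type replicate 1 (1.00, adjusted p = 0.018) but not without any 1 of the other 5 (0.66 at the lowest, adjusted p up to 0.14). Against *htz1Δ*, the *GRE3* call was lost without any 1 of the 6 cultures (-0.52 at the least, adjusted p up to 0.10), that of *SPI1* without *htz1Δ* replicate 2 or *htz1Δ swr1Δ* replicate 3 (-0.57, adjusted p up to 0.094), and that of *GRE1* never (-1.05 at the least). In a fit of these 2 strains alone 7 genes were lower than in *htz1Δ*, with *CTT1* (-0.67, adjusted p = 0.013), *TFS1* (-0.64, adjusted p = 0.0052), *GAD1* (-0.26, adjusted p = 0.040) and *HOR7* (-0.15, adjusted p = 0.042) added, and *SIP18* was higher (0.45, adjusted p = 0.019). No share over all probe sets was counted in that fit. In 7 of the 10 genes every *htz1Δ swr1Δ* culture lay below every *htz1Δ* culture, as in 34.4% of all probe sets. In *SIP18* and *HSP12* (log2 change 0.16) every one lay above, and the share of all probe sets in that direction is not given here.

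In *htz1Δ swc2Δ*, *GRE1* read 9.39, 8.45 and 8.20, close to *htz1Δ* (log2 change -0.11, SE 0.31, adjusted p = 0.81, limma) and above wild type (1.63, SE 0.31, adjusted p = 0.00063). *SIP18* read 7.89, 8.55 and 8.37, above every *htz1Δ* culture (1.30, SE 0.24, adjusted p = 0.00062) and every wild-type culture (1.11, SE 0.24, adjusted p = 0.0020). The paralogs thus had different patterns, with *GRE1* called higher than wild type in both strains and *SIP18* in the double mutant. *SPI1* read 11.14, 11.30 and 10.68, all below *htz1Δ* (-0.66, SE 0.22, adjusted p = 0.027). Its call was lost without *htz1Δ* replicate 2 or 3 or *htz1Δ swc2Δ* replicate 3 (to -0.47, adjusted p up to 0.14), which left 0 genes lower. *GRE3* read 11.38, 11.72 and 11.20 (-0.53, SE 0.20, adjusted p = 0.050) and was called without *htz1Δ swc2Δ* replicate 2 (-0.67, adjusted p = 0.030). In this strain 15% of all probe sets were higher than in wild type, and 16.4% lower and 18.5% higher than in *htz1Δ*.

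In *htz1Δ swc5Δ*, *SIP18* read 7.97, 8.22 and 8.24, again above every culture of *htz1Δ* (log2 change 1.17, SE 0.24, adjusted p = 0.0015, limma) and wild type (0.98, SE 0.24, adjusted p = 0.0043). *GRE1* read 7.87, 7.83 and 7.96, between wild type (0.84, SE 0.31, adjusted p = 0.041) and *htz1Δ* (-0.91, SE 0.31, adjusted p = 0.032). *DDR2* read 11.49, 11.73 and 11.38, near *htz1Δ* and above wild type (0.95, SE 0.27, adjusted p = 0.011). *SPI1* read 10.69, 11.23 and 10.53, all below *htz1Δ* (-0.88, SE 0.22, adjusted p = 0.0054). Against wild type 17.9% of probe sets were higher, and against *htz1Δ* 14.8% were lower and 17.7% higher. Both calls of *GRE1* were lost without most single cultures, that against wild type without any but wild-type replicate 1 (to 0.74, adjusted p up to 0.12) and that against *htz1Δ* without any but *htz1Δ* replicate 3 (to -0.81, adjusted p up to 0.11). The call of *DDR2* was lost without wild-type replicate 2 (0.84, adjusted p = 0.051). The calls of *SIP18* and *SPI1* held without any 1 culture.

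**Figure D3:**
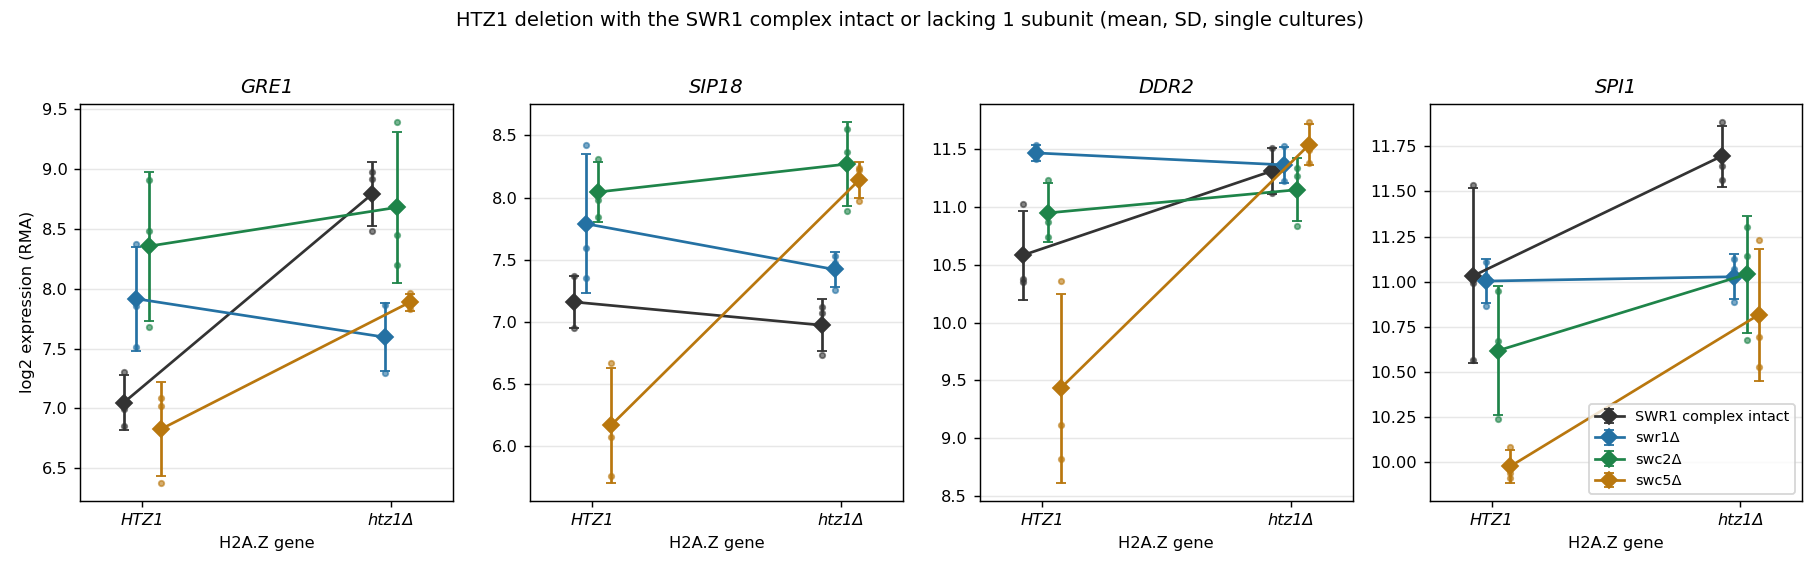
Log2 expression of *GRE1*, *SIP18*, *DDR2* and *SPI1* (y axis, each panel with its own scale) in strains with *HTZ1* and without it (x axis), with 1 line per state of the *SWR1* complex. Diamonds and bars are the mean and SD of 3 cultures and small points are single cultures. *GRE1* rises by 1.74 with the complex intact and by 1.06 in *swc5Δ*, and *SIP18* rises by 1.97 in *swc5Δ*.

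Strains with and without *HTZ1* were also compared within each *SWR1*-complex mutant, by setting each double mutant against its single mutant. In *swr1Δ* and in *swc2Δ* the changes were small. None of the 10 genes was called in either, by limma (0 also at an unadjusted p under 0.05), where 0.346% and 0.0364% of all probe sets were higher and 0.891% and 0.0364% lower. The changes lay between -0.37 and 0.06 in *swr1Δ* and between 0.11 and 0.42 in *swc2Δ*. With the replicate number as a block, which the pairing in these strains calls for, none was called either, and the smallest adjusted p was 0.23 in *swr1Δ* and 0.10 in *swc2Δ*.

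In *swc5Δ* some changes were large, and here the *htz1* and *lys2* deletions cannot be told apart. *DDR2* went from 10.36, 8.83 and 9.11 to 11.49, 11.73 and 11.38, a 4.29-fold rise (log2 change 2.10, SE 0.27, adjusted p = 0.00019, limma). *SIP18* went from 6.67, 5.76 and 6.08 to 7.97, 8.22 and 8.24, a 3.93-fold rise (1.97, SE 0.24, adjusted p = 0.00013). They ranked the ninth and the eleventh of the 5498 probe sets by their rise. *GRE1* (1.06, adjusted p = 0.046), *SPI1* (0.84, adjusted p = 0.027) and *HSP12* (0.47, adjusted p = 0.045) rose as well, so that 5 of the 10 genes rose, against 3.87% of all probe sets. All 10 estimates were above 0, with a median of 0.66.

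The calls of *SIP18* and *DDR2* held without any 1 culture. That of *GRE1* was lost without any but *swc5Δ* replicate 1 (to 0.83, adjusted p up to 0.21). That of *SPI1* was lost without *swc5Δ* replicate 2 or 3 or *htz1Δ swc5Δ* replicate 2 (to 0.64, adjusted p up to 0.15), and that of *HSP12* without these or *htz1Δ swc5Δ* replicate 1 (to 0.32, adjusted p up to 0.21). Without *swc5Δ* replicate 1, 7 genes rose, with *CTT1* (1.57, adjusted p = 0.012) and *GRE3* (0.67, adjusted p = 0.021) added. The share over all probe sets was not counted in that fit either. In a fit of these 2 strains alone 1 gene, *SIP18*, was called (*DDR2* at adjusted p = 0.13), and on the deposited level *HSP12* was not called (0.27, adjusted p = 0.095).

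The difference between the change from single to double mutant and the change from wild type to *htz1Δ* was tested as an interaction. The *htz1Δ* strain also lacks *BAR1* and *htz1Δ swc5Δ* also lacks *LYS2*, which cannot be told apart from the loss of *HTZ1* in these terms. For *GRE1* it was negative with *swr1Δ* (-2.06, SE 0.44, adjusted p = 0.0017, limma) and with *swc2Δ* (-1.42, SE 0.44, adjusted p = 0.019). For *SIP18* (2.16, SE 0.34, adjusted p = 0.00011), *DDR2* (1.38, SE 0.39, adjusted p = 0.010) and *HSP12* (0.63, SE 0.20, adjusted p = 0.018) it was positive with *swc5Δ*. All others missed the threshold. With *swr1Δ*, 3 genes had an interaction with the replicate block, and 6 in a fit of only the 4 strains compared, all negative. Over all probe sets 16.9% and 14.3% had a negative interaction with *swr1Δ* and *swc2Δ*, and 18.8% a positive one with *swc5Δ*. The *GRE1* call with *swc2Δ* was lost without *swc2Δ* replicate 1 or *htz1Δ swc2Δ* replicate 3 (to -1.14, adjusted p up to 0.060). That of *HSP12* was lost without *swc5Δ* replicate 3 or *htz1Δ swc5Δ* replicate 2 (to 0.48, adjusted p up to 0.053) and on the deposited level (0.42, adjusted p = 0.069), and that of *DDR2* in the fit of only the strains compared (adjusted p = 0.054). *SPI1* was called with *swr1Δ* without wild-type replicate 2 (-0.89, adjusted p = 0.029), and *HSP12* with *swc2Δ* without *swc2Δ* replicate 2 (0.56, adjusted p = 0.027). All these interactions share the wild-type and *htz1Δ* arrays.

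Cultures of 1 strain deviated together in these genes. Of the 45 pairs of genes, all correlated above 0 over the 24 arrays (median r = 0.56, from 0.15 to 0.95). With each gene's strain means taken off, 44 did so (median r = 0.55, from -0.09 to 0.98). These values share arrays and are given as a description. *TFS1* and *GRE3* were the most alike (r = 0.95 over arrays and 0.98 within strains). *HOR7* and *GAD1*, which are separated by 1 gene, *GTO3*, on chromosome XIII, had r = 0.85 and 0.91. The paralogs *GRE1* and *SIP18* had r = 0.54 and 0.30, and *HSP12* and *GRE1* had the lowest value within strains, -0.09.

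The shared deviations were largest in *swc5Δ*, *swc2Δ* and 2 of the double mutants. In *swc2Δ* all 10 genes lay above the strain mean in replicate 2 (by 0.43 on average) and all 10 below it in replicate 3 (by -0.39). In *htz1Δ swc2Δ*, replicate 2 had 9 genes above (0.27) and replicate 3 had 8 below (-0.25), and *htz1Δ swc5Δ* had the same counts (0.21 and -0.26). In *htz1Δ*, replicate 2 had all 10 above, by 0.15. The strains *swr1Δ* and *htz1Δ swr1Δ* stayed within -0.08 to 0.07.

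**Figure D4:**
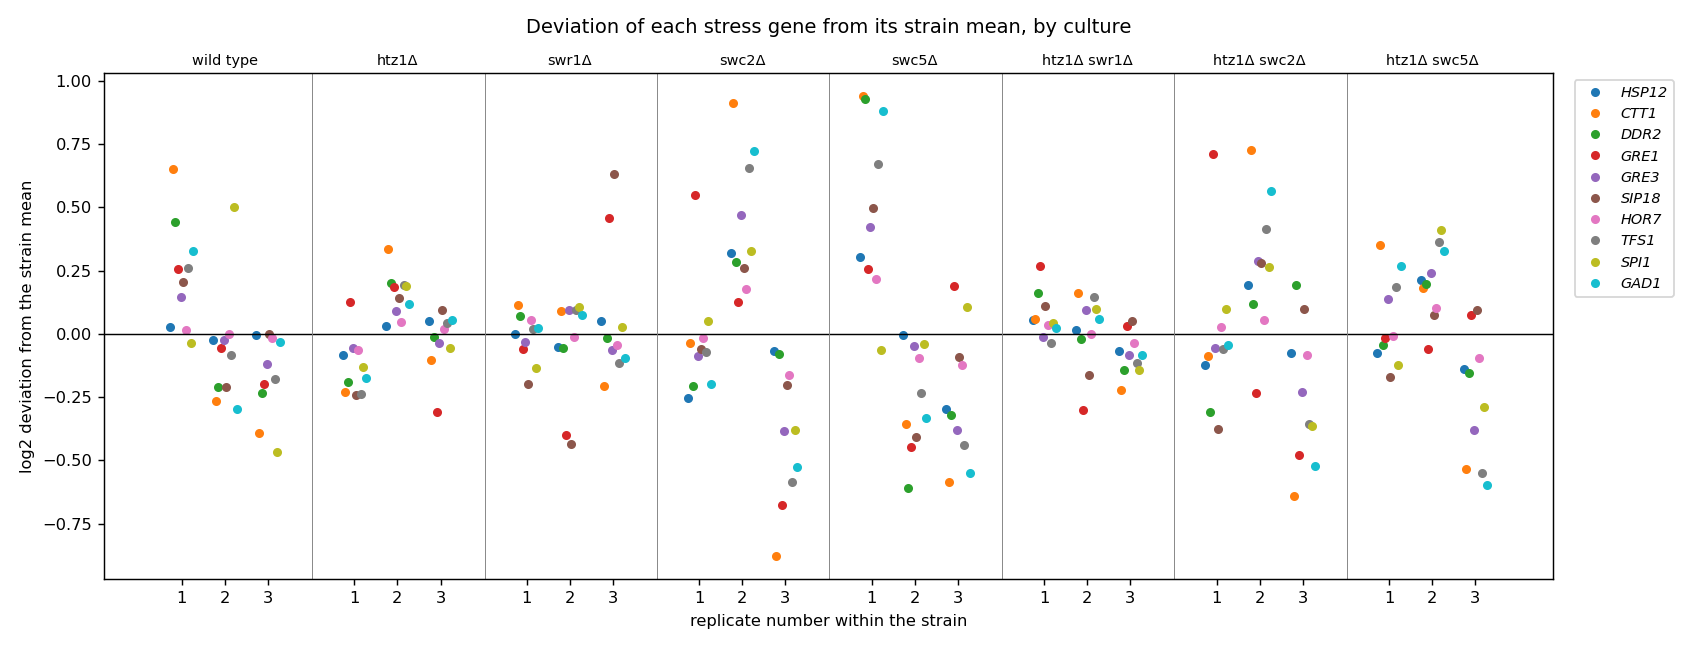
Deviation of each stress gene from the mean of its strain (y axis, log2) in each of the 24 cultures (x axis, replicate number within the strain), with 1 colour per gene. In *swc2Δ* replicate 2 all 10 genes lie above 0, and in replicate 3 all 10 lie below it.

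The genes outside the 10 whose values followed each member most closely were found by Pearson correlation over the 24 arrays. For *GRE3* and *TFS1* the nearest was *PNC1* (r = 0.96 and 0.95), encoding the nicotinamidase of NAD salvage, and for *GRE3* also *TPS1* (0.94), encoding the trehalose-6-phosphate synthase. For *CTT1* it was *PGM2* (0.92), a phosphoglucomutase gene, followed by *YDL124W* and *GDB1*, the glycogen debranching enzyme gene. For *HSP12* it was *HSP31* (0.91) with *TSA2*, a peroxiredoxin gene, and *GPG1*, and for *SPI1* it was *GPD1* (0.84), a glycerol synthesis gene. *DDR2* was most like *IRC15* (0.90) and *HSP26* (0.89), a small heat shock protein gene. *SIP18* was most like *TKL2* (0.86), a transketolase gene, and *NCA3* (0.84), and *GRE1* like *SPS100* (0.84) and *SPG4* (0.80). *HOR7* was most like *DAK1* (0.89), a dihydroxyacetone kinase gene, and *GAD1* like *YMR196W* (0.92).

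Of the 100 probe sets most correlated with *CTT1*, 6 belonged to other members, and of those most correlated with *GRE1*, 1 did (*CTT1*). *GRE3*, *HOR7*, *TFS1* and *GAD1* each had 4 such members, and with *CTT1* they were all in each other's lists. *HSP12*, *DDR2* and *SIP18* were likewise in each other's lists. These are descriptions over arrays that share strains and cultures.

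*MSN2* and *MSN4*, the genes of the transcription factors themselves, changed little in *htz1Δ*. *MSN2* averaged 9.98 in wild type and 10.18 in *htz1Δ* (log2 change 0.20, adjusted p = 0.037, limma), and *MSN4* 9.17 and 9.08 (-0.09, adjusted p = 0.53). *MSN4* was lower than wild type in the 4 strains lacking *SWC2* or *SWC5*, *swc2Δ* (8.50, change -0.67, adjusted p = 0.00018), *swc5Δ* (8.48, -0.69, adjusted p = 0.00014), *htz1Δ swc2Δ* (8.58, -0.59, adjusted p = 0.00062) and *htz1Δ swc5Δ* (8.67, -0.50, adjusted p = 0.0023). It was not called in *swr1Δ* (-0.17, adjusted p = 0.29) or *htz1Δ swr1Δ* (-0.06, adjusted p = 0.73).

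Among the 25 measured regulators of Msn2 and Msn4, 11 rose and 4 fell in *htz1Δ*, where 24.2% of all probe sets rose and 26.9% fell. Genes of protein kinase A rose, the regulatory subunit *BCY1* by 0.68 (adjusted p = 0.00024, limma) and the catalytic subunits *TPK2* by 0.69 (adjusted p = 0.0018) and *TPK3* by 0.71 (adjusted p = 1.1e-06). The adenylate cyclase gene *CYR1* rose by 0.62, the phosphodiesterase gene *PDE1* by 0.64 and the osmotic kinase gene *HOG1* by 0.52. *RAS1*, *GPR1*, *IRA1* and *IRA2* fell (-0.42, -0.31, -0.32 and -0.49), of which *RAS1* encodes an activator of adenylate cyclase, *GPR1* a glucose receptor and *IRA1* and *IRA2* inhibitors of Ras. Against *htz1Δ*, 8, 11 and 9 of the 25 were lower and 3, 1 and 2 higher in *htz1Δ swr1Δ*, *htz1Δ swc2Δ* and *htz1Δ swc5Δ*, where 21.5%, 16.4% and 14.8% of all probe sets were lower and 16.6%, 18.5% and 17.7% higher. *TPK2* was lower in all of them (-0.65, -0.79 and -0.69), and *TPK3* was called lower in *htz1Δ swr1Δ* (-0.53, adjusted p = 7.4e-05).

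Among the paralogs and partners of the members, *SED1*, the cell wall gene related to *SPI1*, rose by 0.23 in *htz1Δ* (adjusted p = 0.024, limma). *YLR179C*, the neighbour of *TFS1* with a related sequence, did not pass the test (0.01, adjusted p = 0.91). *CTA1*, the peroxisomal catalase gene, rose in *htz1Δ* (0.43, adjusted p = 0.046), *swc2Δ* (0.65) and *swc5Δ* (0.61), and *CTT1* passed in none of them. Of the genes that use the γ-aminobutyrate made by Gad1, *UGA3*, encoding the activator of the pathway, rose in *htz1Δ* (1.01, adjusted p = 0.0018) and *UGA4*, encoding the permease, fell (-0.60, adjusted p = 0.00020). *UGA4* was lower than wild type in all 7 mutants (-1.11 to -0.57). Cross-hybridisation between paralogs was not tested.

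In most of the wider stress lists more genes rose than fell in *htz1Δ*. The lists, like the members, were chosen with earlier results of these data known, and their counts are given as a description. Of 39 other known general stress targets, 17 rose and 3 fell (median 0.47), led by *FMP45* (1.45, adjusted p = 0.0019, limma), the vacuolar protease gene *PRB1* (1.31), *RTC3* (1.24) and *YNL194C* (1.15). Of 17 trehalose and glycogen genes, 8 rose and none fell (median 0.57), with the trehalose synthesis genes *TSL1* (1.14) and *TPS1* (1.04) and the glycogen synthesis genes *GSY1* (1.11) and *GLC3* (1.11) the largest. Of 22 heat shock genes, 14 rose and 1 fell (median 0.41), among them the chaperone genes *HSP42* (1.91), *HSP78* (1.31), *HSP104* (1.03) and *HSP82* (0.86). Of 22 oxidative stress genes, 9 rose and 1 fell (median 0.14), with *ZWF1* (0.88) and *CCP1* (0.81) ahead. The osmotic list was even, with 4 higher and 4 lower of 15. Of 19 glucose-repressed genes 3 rose and 5 fell, with *PCK1*, encoding phosphoenolpyruvate carboxykinase, at -2.52. The shares over all probe sets were those given above.

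The same lists were counted in the double mutants against *htz1Δ*. Of all probe sets 21.5%, 16.4% and 14.8% were lower and 16.6%, 18.5% and 17.7% higher in *htz1Δ swr1Δ*, *htz1Δ swc2Δ* and *htz1Δ swc5Δ*. The other stress targets had 12, 5 and 6 of 39 lower and 1 higher in each, so that the numbers lower in *htz1Δ swc2Δ* and *htz1Δ swc5Δ* were near the share over all probe sets. The heat shock genes had 3, 3 and 1 of 22 lower and 0, 1 and 2 higher (medians -0.12, -0.13 and 0.04), and the oxidative stress genes 6, 7 and 6 of 22 lower and 0, 1 and 0 higher. The trehalose and glycogen genes had 4, 7 and 8 of 17 lower and none higher. *TPS1* was lower in all double mutants (-0.83, -0.93 and -0.79). In *swc5Δ* 9 of the 39 other stress targets were lower than wild type and 1 was higher (median -0.32). Over all probe sets 16.6% were lower and 16.4% higher there. Against *swc5Δ*, *htz1Δ swc5Δ* had 9 of the 39 higher and none lower (median 0.43), where 3.87% of all probe sets were higher.

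Among genes of ribosome biogenesis, a process of growing cells, more fell than rose in *htz1Δ*. Of 30, 17 fell and 3 rose in *htz1Δ* against wild type (median -0.28), and *YTM1* fell by 0.64 (adjusted p = 7.5e-05, limma). Over all probe sets 26.9% fell and 24.2% rose. Against *htz1Δ*, 17, 22 and 20 of the 30 were higher in *htz1Δ swr1Δ*, *htz1Δ swc2Δ* and *htz1Δ swc5Δ*, and none was lower. Over all probe sets 16.6%, 18.5% and 17.7% were higher and 21.5%, 16.4% and 14.8% lower. The mean level of the 30 genes was 11.08 to 11.37 in the *htz1Δ* cultures and 11.32 to 11.49 in wild type. The part of this difference in the results on the stress genes was not tested.

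**Figure D5:**
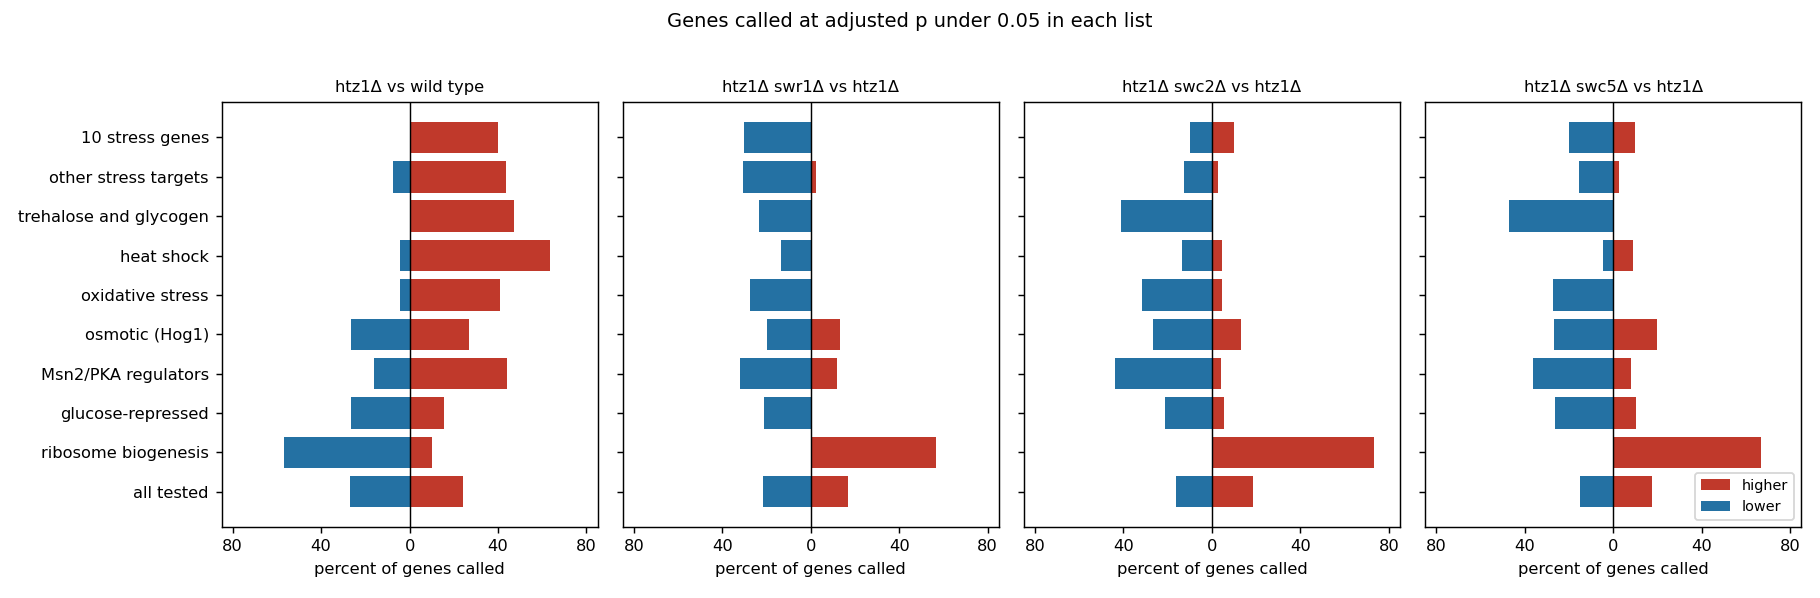
Percent of measured genes in each list (y axis) called higher or lower at an adjusted p under 0.05 (x axis), for *htz1Δ* against wild type and each double mutant against *htz1Δ*. The bottom bar gives all tested probe sets, 24.2% higher and 26.9% lower in *htz1Δ*. Of 30 ribosome biogenesis genes 17 fell in *htz1Δ*. In *htz1Δ swr1Δ*, *htz1Δ swc2Δ* and *htz1Δ swc5Δ*, 17, 22 and 20 were higher than *htz1Δ*, as were 16.6%, 18.5% and 17.7% of all tested probe sets.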

How the data were processed

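RNA of 24 independent cultures (8 strains, 3 each) was hybridised to Affymetrix Yeast Genome 2.0 arrays. The authors captured signals with GCOS, processed them by RMA and deposited log2 values, 1 column per array. Which arrays were normalized together is not given in the sources used here. Of 10928 probe sets, 5498 (5449 genes) have a single *S. cerevisiae* gene in the array annotation and were tested. 1746 belong to another species, 3683 have no gene and 1 has several. All 24 columns were used.

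The 9 arrays of *swr1Δ*, *swc2Δ* and *swc5Δ* were given, rank for rank, the averaged values of the other 15 over the tested probe sets. limma 3.58.1 (R 4.3.3) fitted 1 mean per strain over all arrays, with 16 residual and 2.80 prior degrees of freedom, and calls are at Benjamini-Hochberg adjusted p under 0.05. The fit was tested on simulated data with independent noise and a linear distortion of the single-mutant arrays. Such data cannot test the effect of shared deviations of cultures, or how well the rank step suits the real arrays. The number of arrays limits the precision. No pair of arrays had identical values. The labels of 2 *swr1Δ* cultures give other strain names than that of the first, and the 3 were taken as 1 strain.

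The members and gene lists were chosen with earlier results of these data known. All members are named, and of each other list up to 4 called genes with the largest change in *htz1Δ*, besides regulators, paralogs and partners. Listed genes without a single-gene probe set in the files used were not analysed here. Replicate numbers were taken as pairing where residuals of same-numbered arrays correlated above 0.1 in all 3 pairs, which held for *htz1Δ* and *swc2Δ* (0.14, 0.27, 0.14), *htz1Δ swr1Δ* and *swr1Δ* (0.53, 0.46, 0.37) and *htz1Δ swc2Δ* and *swc2Δ* (0.62, 0.55, 0.57). The alternatives were the deposited level, quantile normalization, median centring, mapping over all probe sets, leaving out the dimmest 25% of probe sets, a replicate block, an intensity trend, a fit of only the strains compared, and leaving out each array.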

Additional observations from a re-analysis of the deposited data

Results flagged for a closer look

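The change from a strain with *HTZ1* to the one without it differed, by the interaction term of the limma fit, between strains with the *SWR1* complex intact and strains lacking a subunit for 5 gene and subunit combinations. Of the 10 genes, 1, 1 and 3 were called with *swr1Δ*, *swc2Δ* and *swc5Δ*. Over all probe sets 15.8%, 17.7% and 18.8% had a positive term and 16.9%, 14.3% and 16.4% a negative one. *GRE1* had -2.06 with *swr1Δ* (adjusted p = 0.0017) and -1.42 with *swc2Δ* (adjusted p = 0.019), the log2 change with *htz1Δ* being 1.74 with the complex intact, -0.32 in *swr1Δ* and 0.32 in *swc2Δ*. With *swc5Δ* the term was 2.16 for *SIP18* (adjusted p = 0.00011), 1.38 for *DDR2* (adjusted p = 0.010) and 0.63 for *HSP12* (adjusted p = 0.018), so that these genes changed by 1.97, 2.10 and 0.47 in *swc5Δ* and by -0.19, 0.73 and -0.15 with the complex intact. The *htz1Δ* strain also lacks *BAR1* and *htz1Δ swc5Δ* also lacks *LYS2*, and these deletions cannot be told apart from that of *HTZ1* here. Each value draws on single-mutant arrays brought to the common level. *GRE1* and *SIP18* lie in the dimmest 25% of the tested probe sets.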

How the results depend on the processing

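Of 190 changes and interactions of single genes, 49 were called. All 49 were called with median centring, mapping over all probe sets, the replicate block and the intensity trend, which added 7, 0, 10 and 2 calls. Quantile normalization kept 48 and the deposited level 42. A fit of only the strains compared kept 41 and added 21. On the deposited level *HOR7* turned, to -0.19 in *swr1Δ* and 0.20 in *swc5Δ* against wild type and 0.22 in *htz1Δ swr1Δ* against *swr1Δ*. No other called value turned.

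Counts of genes called moved as follows, with no share over all probe sets counted in these settings. On the deposited level, 0 were higher in *swr1Δ*, 4 in *swc2Δ* and 1 in *swc5Δ* than wild type, *htz1Δ* was higher than *swr1Δ* in 6 and than *swc2Δ* in 1, 1 differed between *htz1Δ swr1Δ* and *swr1Δ*, and 3 had an interaction with *swc2Δ*. With median centring, the replicate block or the intensity trend, 2 were lower in *htz1Δ swc2Δ* than *htz1Δ*, and the interaction with *swr1Δ* had 2 with median centring and 3 with the block. Without the dimmest 25%, which drops *GRE1* and *SIP18* and leaves 8 genes, 1 was higher than wild type in *swr1Δ*, 0 in *swc2Δ*, 0 in *htz1Δ swc2Δ* and 1 in *htz1Δ swc5Δ*, 2 and 1 were lower in *htz1Δ swc2Δ* and *htz1Δ swc5Δ* than *htz1Δ*, 3 differed between *htz1Δ swc5Δ* and *swc5Δ*, and 0 had an interaction with *swr1Δ* or *swc2Δ*. With only the strains compared, 7 were higher in *htz1Δ* and 2 in *htz1Δ swr1Δ* than wild type, 7 and 2 were lower in *htz1Δ swr1Δ* and *htz1Δ swc2Δ* than *htz1Δ*, *htz1Δ* was higher than *swr1Δ* in 6, 1 differed between *htz1Δ swc5Δ* and *swc5Δ*, and 6 had an interaction with *swr1Δ*. Where the setting does not itself drop genes or arrays, the cause was not tested.

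Leaving out each array gave ranges of genes higher than wild type of 1 to 5 in *htz1Δ*, 0 to 3 in *swr1Δ*, 2 to 2 in *swc2Δ*, 0 to 0 in *swc5Δ*, 0 to 1 in *htz1Δ swr1Δ*, 2 to 2 in *htz1Δ swc2Δ* and 1 to 3 in *htz1Δ swc5Δ*. Lower than *htz1Δ* were 1 to 2, 0 to 2 and 1 to 2 in the double mutants with *swr1Δ*, *swc2Δ* and *swc5Δ*. Higher in *htz1Δ* than *swr1Δ*, *swc2Δ* and *swc5Δ* were 0 to 2, 1 to 5 and 5 to 9, and the double mutants differed from these single mutants in 0 to 0, 0 to 0 and 2 to 7. Interactions numbered 1 to 2, 0 to 2 and 2 to 3. Same-numbered arrays of different strains correlated above 0.1 in 42 of 84 pairs, and 19 of 24 arrays were most like an array of the same number in another strain.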
